A study of Mus musculus with 12 samples.

Results

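Ch25h, Cyp27a1, Cyp7b1 and Gpr183 are the genes of a NanoString nCounter Neuroinflammation panel that make and sense oxysterols, the hydroxylated derivatives of cholesterol. They were taken by name from the deposited table, and all 4 were among its 770 genes. RNA came from microglia, the resident macrophages of the central nervous system (CNS), which were sorted from dissociated CNS tissue of C57B6 mice after fixation and permeabilization. The groups compared were aged P-ERK1/2 High microglia (n = 4), aged P-ERK1/2 Low microglia (n = 4) and adult microglia that were not separated by phosphorylation of the kinases ERK1/2 (n = 3). Aged mice were over 80 weeks old and adult mice 12 to 20 weeks old per the labels, which call both the mice and the cells untreated. A further adult sample, number 11, carries a label that excludes it for poor quality. It is given here as a separate value and was added to the adult group only as an alternative setting. The methods describe a gate on yellow fluorescent protein, intermediate CD45 and no Ly6G after enrichment on CD11b beads, in mice with Cre recombinase and the fluorescent protein under the Cx3cr1 promoter, and they describe tamoxifen treatment of Cre mice, so all groups share these. The interval since tamoxifen was short in adult and long in aged mice as the study describes them, and it cannot be told apart from age. Each sample pooled the CNS of a male and a female. The sources used here do not say whether High and Low samples came from the same mice. The p-values measure the spread between these pools.

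Ch25h encodes cholesterol 25-hydroxylase, a membrane enzyme of the endoplasmic reticulum that is induced by interferons and Toll-like receptor ligands in macrophages and makes 25-hydroxycholesterol. Cyp27a1 encodes the mitochondrial sterol 27-hydroxylase, a cytochrome P450 that hydroxylates the cholesterol side chain. Cyp7b1 encodes the oxysterol 7-alpha-hydroxylase, which acts on the products of both enzymes. The product of Ch25h and Cyp7b1 acting in turn, 7-alpha,25-dihydroxycholesterol, is the main known ligand of Gpr183 (also called EBI2), a G protein-coupled receptor that guides migration of immune cells. In the brain this system is studied in glia and infiltrating lymphocytes, and oxysterols also restrain sterol synthesis and activate LXR nuclear receptors.

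The 4 genes lie on 4 chromosomes of the mouse assembly GRCm38.p6. Ch25h spans chr19:34473783-34475148, Cyp27a1 spans chr1:74713148-74737897, Cyp7b1 spans chr3:18071944-18243890 and Gpr183 spans chr14:121952331-121965193. The 250 bases before the annotated start are shown for the enzyme and the receptor whose levels moved in opposite directions between the aged groups. The Ch25h window (chr19:34475149-34475398, minus strand) holds 50.4% G and C, the Gpr183 window (chr14:121965194-121965443, minus strand) 32.0%, and the median over 32536 mouse promoters was 52.4% with quartiles at 45.2% and 61.2%. Capitals mark a cyclic AMP response element, TGACGTCA. The sequences are RefSeq's, read 5′ to 3′.
Ch25h: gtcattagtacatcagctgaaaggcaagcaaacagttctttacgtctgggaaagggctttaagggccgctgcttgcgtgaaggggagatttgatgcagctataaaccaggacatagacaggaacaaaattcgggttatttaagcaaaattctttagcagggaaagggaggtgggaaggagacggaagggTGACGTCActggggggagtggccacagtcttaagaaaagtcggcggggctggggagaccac
Gpr183: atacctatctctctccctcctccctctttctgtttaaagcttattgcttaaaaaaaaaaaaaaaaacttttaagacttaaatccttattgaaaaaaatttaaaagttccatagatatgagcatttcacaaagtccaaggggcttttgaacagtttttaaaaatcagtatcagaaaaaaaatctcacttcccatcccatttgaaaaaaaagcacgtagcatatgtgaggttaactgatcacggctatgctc
The Ch25h window held this element once, 61 to 54 bases before the start, and 1.555% of the 32536 promoter windows of the same length held it on either strand. It was chosen for search after the sequences had been read. The motifs searched on both strands for STAT factors (TTCNNNGAA, in 7.04% of windows), the IRF element (2.98%), AP-1 (TGANTCA, 6.73%), ETS factors (CCGGAAGT, 2.90%) and the LXR element (0.015%) were not among the letters of the Ch25h or Gpr183 window, nor of the Cyp27a1 window (chr1:74713285-74713534, plus strand), which precedes an annotated start that lies inside the span given above for the gene.

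The deposited values are counts of single RNA molecules bound by a gene's probe, multiplied by 1 factor for each sample. The whole counts could be read back from the steps of the values, and they show the depth behind each value. P-ERK1/2 High samples held 650965 to 1539936 counts over the panel, P-ERK1/2 Low samples 123798 to 157209 and adult samples 137980 to 326575. The factors were 0.71 to 1.27 in High, 2.68 to 4.10 in Low and 1.16 to 2.47 in adult samples. As a limit of background served, in each sample, the mean of its 8 negative control probes with 2 SD added, which was 20.6 to 41.9 counts over the 12 samples. On the normalized scale this limit was 26.1 to 39.5 in High, 69.2 to 116.9 in Low and 37.9 to 95.1 in adult samples. A value of 50 was therefore above background in any High sample and within background in any Low sample. Of all 770 genes, 589 to 673 were above this limit in a High sample, 410 to 484 in a Low sample and 417 to 560 in an adult sample. Of 8 microglia markers, 8 were above the limit in every High sample, 5 in every adult sample and 2 in every Low sample. Their summed level was 2851 to 3544 in High, 3371 to 3692 in Low and 3487 to 3801 in adult samples. By the rule given below, 4 of the 8 were called higher in High than in Low, as 28.2% of all 770 genes were. Each of these 4 was above the limit in at most 1 Low sample, so their calls are set against background.

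Between the aged populations, with the deposited scaling, Ch25h and Cyp27a1 were higher in P-ERK1/2 High than in P-ERK1/2 Low microglia, and Gpr183 was lower. The sign of Gpr183 turned under some other scalings, and the calls of Cyp27a1 and Gpr183 were lost in several settings, as given below. Ch25h was 6.70-fold higher, Cyp27a1 2.28-fold higher and Gpr183 2.01-fold lower on the log2(value + 1) scale. The Low samples were within background for Ch25h and Cyp27a1, so with the deposited scaling the data give only bounds of at least 2.06-fold and at least 1.27-fold, which move with the scaling. Cyp7b1 was not called with the deposited values. Genes were called on the unadjusted limma p, which had to be under 0.01, together with a change of more than 1 on the log2 scale. By this rule 2 of the 4 genes were called higher, where 28.2% of all 770 genes were, and 1 was called lower, where 9.61% were. In 3 of the 4 genes the High and Low samples did not overlap, as in 49.4% of all genes. In bulk samples fewer cells of a type and less RNA per cell cannot be told apart.

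Ch25h had normalized values of 157, 235, 243 and 213 in the P-ERK1/2 High samples 2, 5, 7 and 8. In the P-ERK1/2 Low samples 3, 6, 9 and 12 they were 20.3, 28.1, 40.1 and 36.9. The adult samples 1, 4 and 10 gave 70.3, 37.3 and 46.9. Every High sample lay above every Low and every adult sample, and the Low and adult samples overlapped. Group means were 212 ± 38.7 (SD, n = 4) in High, 31.4 ± 8.95 (SD, n = 4) in Low and 51.5 ± 17.0 (SD, n = 3) in adult microglia. The log2 fold change of High over Low was 2.74 (SE 0.26, 95% interval 2.17 to 3.32, limma adjusted p = 1.02e-05). The counts behind the High values were 129 to 329, all above the control limit, and those behind the Low values were 6 to 15, none above it. A count of 6 has an exact Poisson 95% interval of 2.20 to 13.1, and one of 15 an interval of 8.40 to 24.7, which cover counting error only. With the Low samples set to a floor of 30 counts, Ch25h was at least 2.06-fold higher in High, and at least 2.14-fold with the control limit as the floor, both with the deposited scaling. An exact two-sided permutation test over samples gave p = 0.0286, the smallest that 4 against 4 samples allow. It stayed called without any 1 of the 8 samples, at log2 fold changes of 2.56 to 2.88.

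Summed levels of markers of some other cell types were higher in High samples, as Ch25h was, and their calls stand beside 28.2% of all genes called higher and 9.61% called lower. The summed level of 7 endothelial markers was 677 to 1277 in High, 228 to 377 in Low and 299 to 437 in adult samples, and 4 of the 7 were called higher in High than in Low. Of these 7, 6 were within background in every Low sample. The summed level of 6 astrocyte markers was 1412 to 2143 in High, 580.5 to 832.8 in Low and 467 to 677 in adult samples, with 3 of 6 called higher and 4 of 6 within background in every Low sample. For 10 T and NK cell markers the sums were 320.1 to 1179 in High, 187 to 273 in Low and 159.5 to 346 in adult samples, with 3 of 10 called higher. For 6 B cell markers they were 224 to 503 in High and 156 to 209 in Low samples, with 2 of 6 called higher. No T and NK cell or B cell marker was above the control limit in any Low sample, and 8 of 10 and 4 of 6 were in at least 1 High sample, where more genes of the whole panel also were (589 to 673 in High and 410 to 484 in Low samples). Sums of the markers of border macrophages and monocytes (175 to 249 in High and 126 to 189 in Low, 1 of 4 called higher), neutrophils, oligodendrocytes and neurons (1 of 6 called higher and 2 lower) overlapped between High and Low samples. The part of these cells, and of the depth that differed between the groups, in the fold changes of the 4 genes was not tested.

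**Figure D1:**
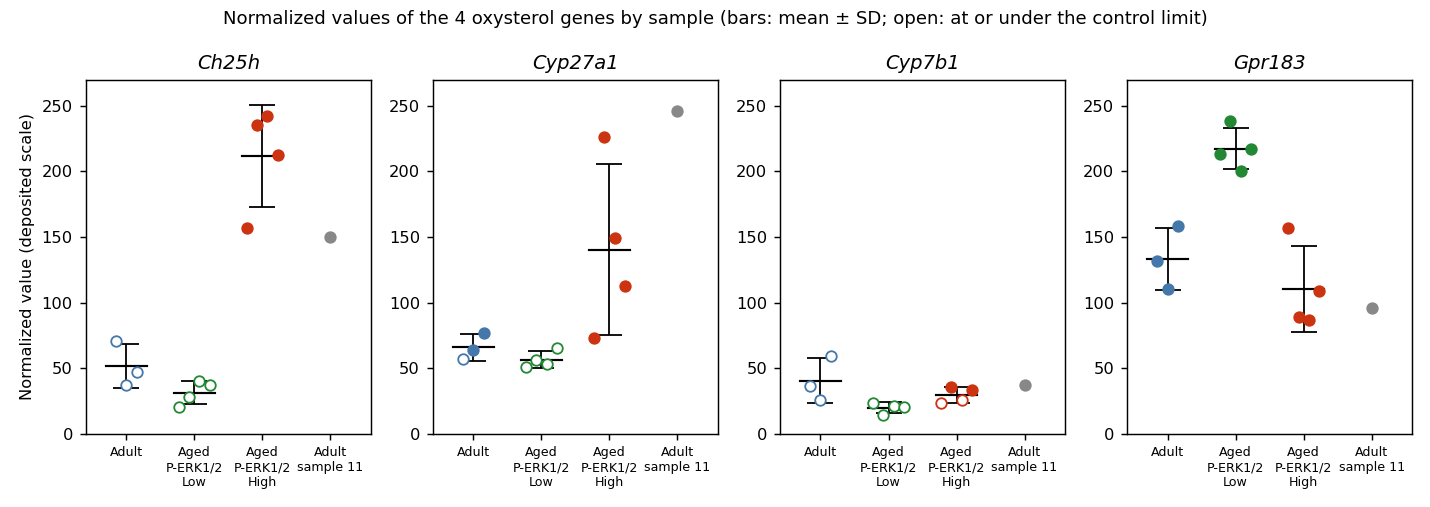
Normalized value (vertical axis, deposited scale) of Ch25h, Cyp27a1, Cyp7b1 and Gpr183 in each sample, with the mean and SD of each group as bars and open points for samples at or under the negative control limit. The 4 High samples lay at 157 to 243 for Ch25h, above all Low and adult samples, whereas for Gpr183 the 4 Low samples lay highest, at 201 to 238.

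Cyp27a1, the mitochondrial enzyme, was 73.0, 227, 149 and 113 in the High samples 2, 5, 7 and 8. The Low samples 3, 6, 9 and 12 gave 50.8, 56.1, 53.5 and 65.6, and the adult samples 1, 4 and 10 gave 56.7, 64.1 and 76.6. High and Low samples did not overlap, although the lowest High value and the highest Low value were close, and the lowest High value lay below the highest adult value. The spread was wide in High, with a mean of 140 ± 65.3 (SD, n = 4), and narrow in Low, at 56.5 ± 6.45 (SD, n = 4), and in adult microglia, at 65.8 ± 10.0 (SD, n = 3). The log2 fold change of High over Low was 1.19 (SE 0.31, 95% interval 0.50 to 1.87, limma adjusted p = 0.00733). It was not called without High sample 5, the sample with the highest value, at 0.92, nor with a pseudocount of 20 (0.98), median-of-ratios scaling (0.93), quantile normalization (0.80) or the panel total (0.17). Low counts were 15 to 20, none above the control limit, and with these at the floor of 30 counts Cyp27a1 was at least 1.27-fold higher in High with the deposited scaling, a bound that the value with the panel total does not reach. The exact permutation p was 0.0286.

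Cyp7b1, which acts on the products of the other enzymes, was counted near background in most samples. High samples gave 23.1, 35.7, 25.8 and 32.9 and Low samples 23.7, 14.0, 21.4 and 20.5. The adult samples 1, 4 and 10 gave 36.3, 25.6 and 59.3. High and Low samples overlapped by a single Low sample, number 3, and High and adult samples overlapped as well. Means were 29.4 ± 5.91 (SD, n = 4) in High, 19.9 ± 4.15 (SD, n = 4) in Low and 40.4 ± 17.2 (SD, n = 3) in adult microglia. Of the 11 samples, 2 were above the control limit, both in High, and Low counts were 4 to 8, where a count of 4 has an exact Poisson 95% interval of 1.09 to 10.2. The log2 fold change of High over Low was 0.54 (95% interval 0.02 to 1.07, limma adjusted p = 0.0772), and the exact permutation p was 0.0571.

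Gpr183, the receptor, ran the other way. Its values were 157, 89.4, 86.5 and 109 in the High samples 2, 5, 7 and 8 and 213, 238, 201 and 217 in the Low samples 3, 6, 9 and 12. The adult samples 1, 4 and 10 gave 132, 111 and 158. Every Low sample lay above every High and every adult sample, and High and adult samples overlapped. Means were 110 ± 32.6 (SD, n = 4) in High, 217 ± 15.7 (SD, n = 4) in Low and 133 ± 23.8 (SD, n = 3) in adult microglia. The log2 fold change of High over Low was -1.01 (SE 0.24, 95% interval -1.53 to -0.49, limma adjusted p = 0.0038), and the exact permutation p was 0.0286. Gpr183 was above the control limit in 11 of 11 samples, with counts of 77 to 129 in High, 53 to 75 in Low and 58 to 95 in adult samples. Its counts thus were no lower in High than in Low samples before scaling, and the lower level in High was a level relative to the housekeeping genes. The fold change sat at the threshold, and it was not called without High sample 5 (-0.92), High sample 7 (-0.91) or Low sample 6 (-0.97), nor with a pseudocount of 20 (-0.89), the 6 housekeeping genes (-0.47) or subtraction of 10 counts (-0.92).

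The scaling set the sign of the smaller changes. With the deposited values the median of all 770 genes was 0.26 higher in High than in Low on the log2 scale, and relative to that median Ch25h was 2.49, Cyp27a1 0.93, Cyp7b1 0.29 and Gpr183 -1.27. The median moved to 0.00 with median-of-ratios scaling, to -0.76 when samples were scaled to the same panel total, to 0.80 with the 6 most stable housekeeping genes and to 1.86 with unscaled counts. Called genes split as 217 higher and 74 lower in the deposited values, as 177 and 121 with median-of-ratios scaling, as 148 and 142 with quantile normalization, as 59 and 311 with the panel total, as 310 and 8 with 6 housekeeping genes, as 304 and 56 after subtraction of 10 counts, as 595 and 1 with unscaled counts and as 659 and 0 with positive control scaling. Ch25h was called higher in all of 12 alternative settings, at 1.73 to 5.01. Gpr183 turned from lower to higher with unscaled counts (0.65) and with positive control scaling (0.96) and was called lower in 7 of the 12, and Cyp7b1 turned from higher to lower with the panel total (-0.44), whereas Cyp27a1 lay at 0.17 to 3.11 and was called in 8 of the 12. Cyp7b1 was called higher in 4 of 11, at 1.07 with the 6 housekeeping genes, 2.06 with unscaled counts, 2.08 after subtraction of 10 counts and 2.35 with positive control scaling. The subtraction set counts that fell below 1 to 1 count. This held in every Low sample for Cyp7b1 (counts of 4 to 8) and in Low samples 3, 6 and 12 for Ch25h. Their values after subtraction, 2.08 and 5.01, thus rest on that setting. A scaling by 1 factor per sample moves all genes by nearly the same amount, so the distance of a gene from the median gene stays almost fixed under it.

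**Figure D2:**
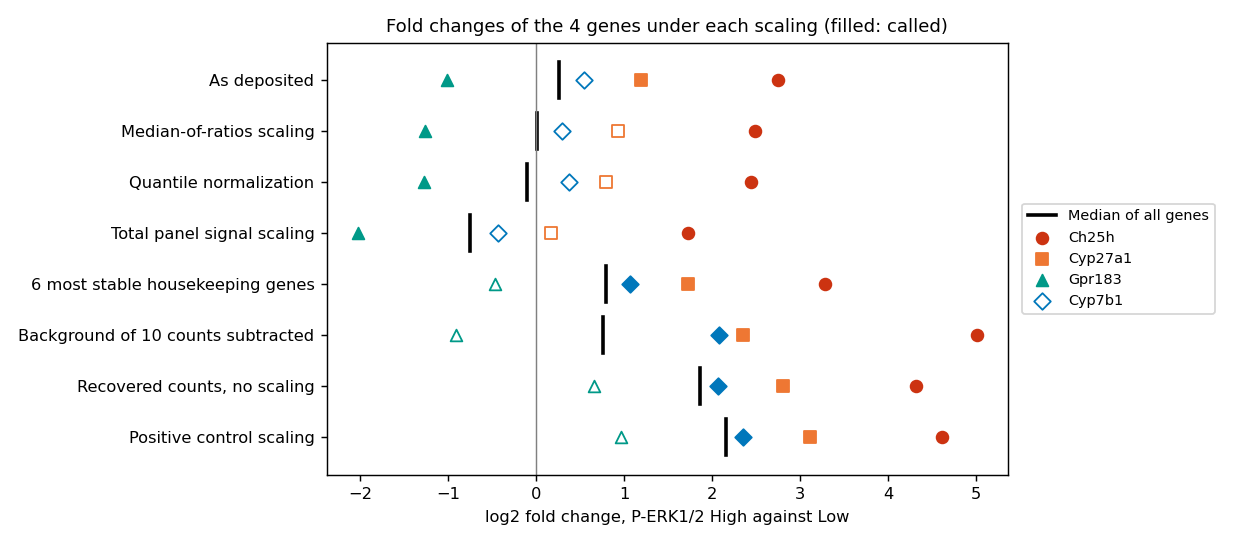
log2 fold change of P-ERK1/2 High over Low (horizontal axis) of the 4 genes under 8 ways of scaling the samples, with filled symbols for called genes and a black bar for the median of all 770 genes. A factor per sample moves the genes and the median bar together. Gpr183 crossed 0 with unscaled counts and positive control scaling and Cyp7b1 with the panel total.

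A ratio of both genes within a sample does not depend on that sample's factor. The log2 ratio of Ch25h to Gpr183 counts was 0.96 ± 0.68 (SD, n = 4) in High, from 0.00 to 1.49. It was -2.84 ± 0.49 (SD, n = 4) in Low, from -3.39 to -2.32, and -1.41 ± 0.45 (SD, n = 3) in adult microglia, from -1.75 to -0.90. Ch25h counts in every Low and adult sample were within background, so the ratios of these samples, and any order between Low and adult, rest on background counts. The measured differences were 3.80 between High and Low and 2.37 between High and adult samples. With Ch25h set to the control limit in the Low and adult samples, the log2 ratio was higher in High by at least 2.11 over Low and at least 2.06 over adult samples. Since the probes of a pair of genes can differ in efficiency, the ratio compares samples and not the levels of both genes.

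**Figure D3:**
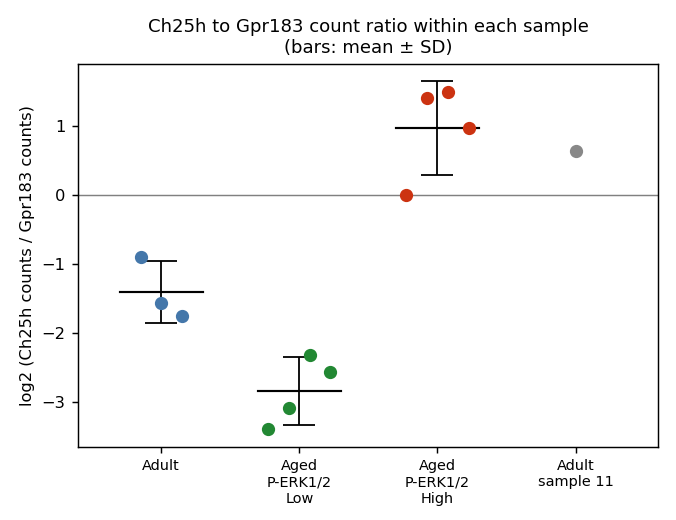
log2 ratio of Ch25h to Gpr183 counts within each sample (vertical axis), with the mean and SD of each group as bars. High samples lay at 0.00 or above, adult samples at -1.75 to -0.90 and Low samples at -3.39 to -2.32, with Ch25h within background in both of the latter, and adult sample 11 lay at 0.64.

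Aged P-ERK1/2 Low microglia were then set against adult microglia. None of the 4 genes was called, where 8.05% of all genes were called higher and 2.73% lower, and 3 of the 4 had an unadjusted limma p under 0.05, as 39.2% of all genes had. Under other settings calls were made for Ch25h (-1.46), Cyp27a1 (-1.03) and Cyp7b1 (-1.65) with unscaled counts, the same 3 after subtraction of 10 counts (-2.33, -1.01 and -2.18), Ch25h (-1.42) and Cyp7b1 (-1.60) with positive control scaling, and Cyp7b1 alone with median-of-ratios (-1.05) or panel total scaling (-1.31) and without adult sample 4 (-1.21). Of all 770 genes, 232 were called lower with unscaled counts, 91 after subtraction and 218 with positive control scaling. Called lower were 27 with median-of-ratios scaling, 59 with the panel total and 30 without adult sample 4. The subtraction set to 1 count every Low sample for Cyp7b1 and Low samples 3, 6 and 12 for Ch25h. Gpr183 was at 0.71 on the log2 scale (SE 0.16, 95% interval 0.34 to 1.09, limma adjusted p = 0.0147), which did not reach the fold threshold, and its sign turned with unscaled counts (-0.14) and positive control scaling (-0.10). Cyp7b1 was at -0.93 (95% interval -1.61 to -0.24, adjusted p = 0.0532) with every value of both groups under the control limit. These 2 genes did not overlap between the groups, where 36.5% of all genes did not. Ch25h was at -0.70 (95% interval -1.37 to -0.02, adjusted p = 0.119) and Cyp27a1 at -0.21 (95% interval -0.59 to 0.16, adjusted p = 0.376), and their samples overlapped. An exact permutation test of 4 against 3 samples cannot give a p below 0.0571, which was the value for Cyp7b1 and Gpr183.

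Aged P-ERK1/2 High microglia were compared with the same adult samples, so this comparison and the previous share their controls. Ch25h was called higher, as 29.2% of all genes were, and no gene of the 4 was called lower, where 7.66% were. Ch25h was 4.14-fold higher (log2 fold change 2.05, SE 0.29, 95% interval 1.41 to 2.69, limma adjusted p = 0.000259) and, with the adult samples at the control limit, at least 3.38-fold, with the deposited scaling. It was the only 1 of the 4 whose samples did not overlap, as 50.3% of all genes did not. It was called under 12 of 13 alternative settings and not with samples scaled to the same panel total, at 0.65. Cyp27a1 was at 0.97 (95% interval 0.18 to 1.77, adjusted p = 0.0444), under the fold threshold. It turned to -0.43 with the panel total and was called with the 6 housekeeping genes (1.52), unscaled counts (1.78), positive control scaling (2.12) and without High sample 2 (1.25). The settings that called it called 340, 347, 420 and 232 of all 770 genes higher, in that order. Cyp7b1 was at -0.38 (95% interval -1.08 to 0.31, adjusted p = 0.336) and Gpr183 at -0.30 (95% interval -0.92 to 0.33, adjusted p = 0.407), and both turned sign with the 6 housekeeping genes, with unscaled counts and with positive control scaling. With the panel total both were called lower, at -1.75 for Cyp7b1 and -1.70 for Gpr183, as were 362 of all 770 genes. Over the 12 exact tests of 4 genes in 3 comparisons, the lowest p after Benjamini-Hochberg adjustment was 0.0979. With these sample numbers no adjusted exact p below 0.0571 was possible, whatever the values.

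**Figure D4:**
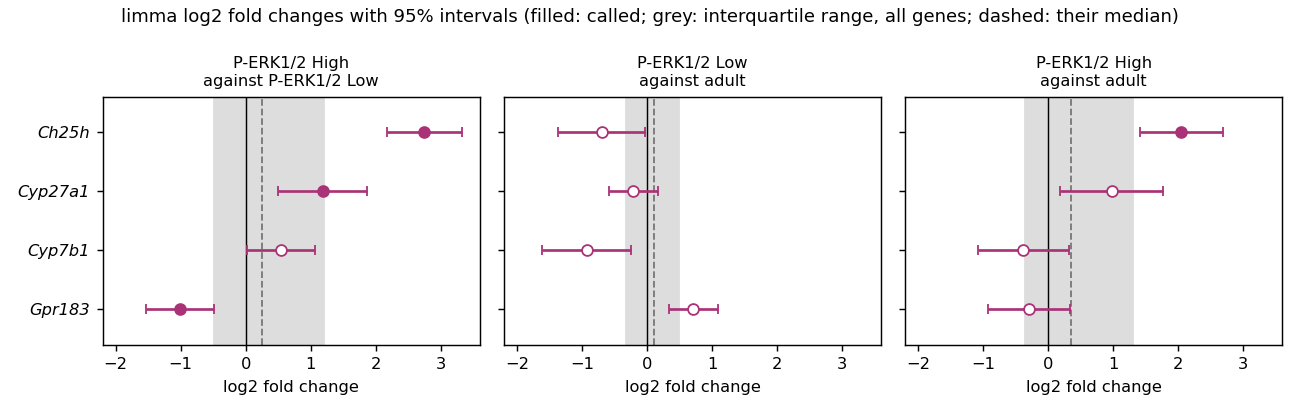
limma log2 fold changes of the 4 genes (horizontal axis) with 95% intervals in the 3 comparisons, filled where called, against the interquartile range of all 770 genes (grey) and their median (dashed). Ch25h stood apart from the grey band in both comparisons of High samples, and Cyp27a1 lay at its upper edge between High and Low.

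By mean of the deposited values, Ch25h and Cyp27a1 ran from Low through adult to High, with Low and adult not apart for either and adult and High not apart for Cyp27a1. Cyp7b1 ran from Low through High to adult, with both neighbouring pairs overlapping. Ch25h and Cyp7b1 were within background in every Low and adult sample and Cyp27a1 in every Low sample, so these groups have no measured order for them, and the signs of Cyp7b1 turned with scaling. Gpr183 ran from High through adult to Low, and of its neighbouring pairs High and adult overlapped, and the signs of both pairs turned with scaling.

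Across the 11 samples Pearson's r of log2(value + 1) was 0.84 between Ch25h and Cyp27a1, -0.80 between Ch25h and Gpr183, -0.80 between Cyp27a1 and Gpr183, and 0.33, 0.36 and -0.50 between Cyp7b1 and Ch25h, Cyp27a1 and Gpr183. These values describe samples of 3 groups that share a group structure, a depth and a scaling factor. The genes of the panel with the most similar pattern to Ch25h were Arhgap24, a GTPase-activating protein (0.97), Eef2k, the kinase of elongation factor eEF2 (0.97), and Dnmt3a, a DNA methyltransferase (0.97). For Cyp27a1 they were Tlr7, a receptor for single-stranded RNA (0.97), Cd83 (0.97) and the TNF receptor Tnfrsf1b (0.96). For Gpr183 they were the peroxiredoxin Prdx1 (0.97), the CSF-1 and IL-34 receptor Csf1r (0.97) and Tgfb1, the cytokine TGF-beta (0.96). For Cyp7b1 the closest were Steap4 (0.84), Gpr84 (0.75) and Mag (0.73), further from it than the leading genes of the other members.

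Of the other genes of sterol and lipoprotein handling on the panel, 1 of 9 was called higher and 2 lower in High than in Low, where 28.2% of all genes were called higher and 9.61% lower, and the median log2 fold change was -0.15 beside 0.26 for all genes. Fdxr, the ferredoxin reductase that passes electrons to mitochondrial P450 enzymes, rose by 1.26 (SE 0.29, limma adjusted p = 0.00338), with no Low sample above the control limit. The scavenger receptor Cd36 was at -1.56 (adjusted p = 0.00967) and the apolipoprotein Apoe, which carries cholesterol, at -1.34 (adjusted p = 0.00156), both lower in High. Msr1, a scavenger receptor for modified lipoproteins, was at 0.92 and was not called. Against adult microglia, 2 of the 9 were called higher in Low, where 8.05% of all genes were, and 2 higher and 1 lower in High, where 29.2% and 7.66% were.

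Interferons and Toll-like receptor ligands are known inducers of Ch25h, and of 20 genes of these pathways 4 were called higher and 1 lower in High than in Low, with a median of -0.25, where 28.2% and 9.61% of all genes were called. The RNA sensors Ifih1 and Ddx58 were at 2.91 and 1.54, the chemokine Cxcl9 at 1.66 and Tlr7 at 1.60, with limma adjusted p from 4.85e-06 to 0.00455. No Low sample was above the control limit for Cxcl9 and 1 of 4 was for Ifih1. Against adult microglia, 2 of the 20 were called higher in Low (8.05% of all genes), and 4 higher and 2 lower in High (29.2% and 7.66%).

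Gpr183 is one of several receptors for chemoattractants and lipids on the panel. Of 15 others, 3 were called higher and 2 lower in High than in Low, with a median of 0.42, beside the same 28.2% and 9.61% of all genes. The purinergic receptor P2ry12 was at 1.91 (limma adjusted p = 0.000347), Hcar2, a receptor for hydroxylated fatty acids, at 1.63 and Gpr34, a lysophosphatidylserine receptor, at 1.13. No Low sample was above the control limit for P2ry12 or Gpr34 and 1 of 4 was for Hcar2, so these values are set against background. The complement receptor C5ar1 was lower, at -1.41. Against adult microglia, 1 of the 15 was called higher in Low (8.05% of all genes) and 2 higher in High (29.2%).

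**Figure D5:**
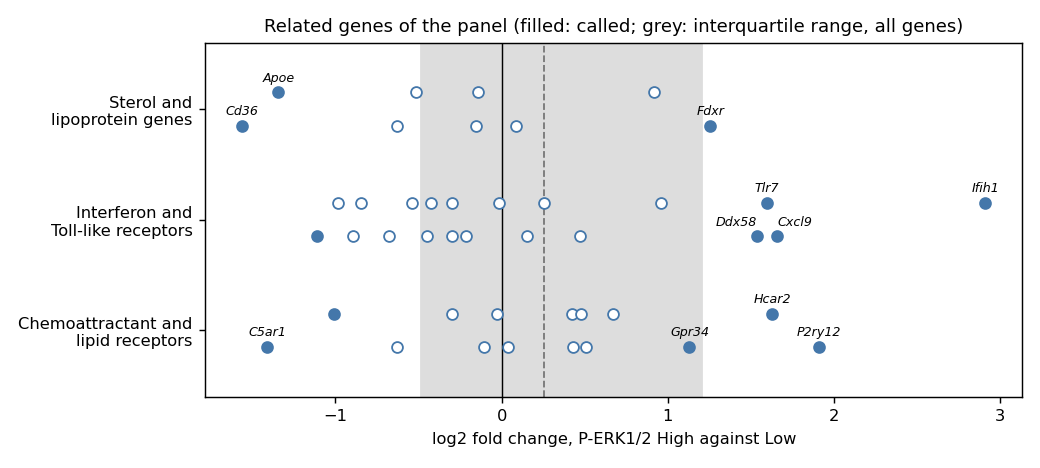
log2 fold change of P-ERK1/2 High over Low (horizontal axis) of 9 sterol and lipoprotein genes, 20 interferon and Toll-like receptor genes and 15 chemoattractant and lipid receptors, each point 1 gene, filled where called and named where also among the 4 largest changes of its list, against the interquartile range of all 770 genes (grey) and their median (dashed). Called genes lay on both sides of 0 in each list, with scaling as deposited.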

How the data were processed

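RNA of sorted microglia was counted with the NanoString nCounter Neuroinflammation panel in 12 samples. The authors processed the counts in nSolver (the sources used here give no version) and deposited 1 normalized signal value per gene and sample. Each deposited signal value was a whole count multiplied by 1 factor per sample, which set the 13 housekeeping genes to a geometric mean of 172.73, and no background had been subtracted. After division by the factor 99.83% of the values were whole to within 0.1, and 16 genes were listed at 1 in sample 11. The control probes were read from the same table. The 12 columns were mapped by sample number and 0 were left out. Of 770 gene names 763 matched a symbol and 7 a synonym of RefSeq.

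Samples were grouped by their labels, and sample 11 was left out of the main comparisons. Each comparison was fitted on log2(value + 1) for all 770 genes with limma 3.58.1 in R 4.3.3, with no filter, and p-values were adjusted by Benjamini-Hochberg over all genes. The lists and tests of the 4 genes used Python 3.11.15 with scipy 1.17.1. On simulated data, 200 of 770 genes were changed by 2 on the log2 scale. The call recovered 97.5% of these for High against Low, 95% for Low against adult and 100% for High against adult. It made 5, 1 and 1 false calls, in that order. Recovery at counts within background, such as those of Ch25h in Low samples, was not tested. Named genes were the 4 members, the 3 genes most correlated with each, and at most 4 per list by size of change. The members and lists were chosen with earlier results of these data known. Alternatives were pseudocounts, scalings, a background subtraction, a filter on mean values, the spread, the call rule, adding sample 11 to the adult group and leaving out each sample.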

Additional observations from a re-analysis of the deposited data

Results flagged for a closer look

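Adult sample 11, which its label excludes for poor quality, differed from the adult samples that were compared, and it drew attention as a signal in a sample outside the comparisons. Its Ch25h value was 149.7, above each of the 3 adult samples at 37.3 to 70.3, and its Cyp27a1 value was 245.88, above their 56.7 to 76.6. Its log2 ratio of Ch25h to Gpr183 counts was 0.64, where the adult samples lay at -1.75 to -0.90 and the P-ERK1/2 High samples at 0.00 to 1.49. It held 1464449 counts, within the range of the High samples. The geometric mean of its positive control counts was 286.4, where the other 11 samples had 953.9 to 1459.7. Its summed astrocyte (2162.5), endothelial (825.3) and T and NK cell markers (788.3) were above the adult samples, at 467 to 677, 299 to 437 and 159.5 to 346. The part of these differences in its values was not tested. With it added to the adult group, the log2 fold change of Ch25h in High over adult samples was 1.66, which met the call with a limma adjusted p of 0.127, and all genes called in that comparison fell from 284 to 49.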

How the results depend on the processing

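Of 236 alternative fold changes of the 4 genes, 191 kept their direction and side of the call, 21 became called, 12 lost the call with their sign kept and 12 changed sign, 2 of which also lost the call. The cause was not tested. High against Low: with a pseudocount of 20, Cyp27a1 was 0.98, Gpr183 -0.89 and 1 gene was called. Cyp27a1 was 0.93 with median-of-ratios, 0.80 with quantile and 0.17 with panel total scaling, which put Cyp7b1 at -0.44. With 6 housekeeping genes, Cyp7b1 was 1.07 and Gpr183 -0.47. Unscaled counts gave Cyp7b1 2.06 and Gpr183 0.65, subtraction of 10 counts 2.08 and -0.92, and positive control scaling 2.35 and 0.96. Leaving out each sample gave Cyp27a1 0.92 to 1.46, Gpr183 -1.19 to -0.91 and 1 to 3 genes called, with 1 without High sample 5. Low against adult: Cyp7b1 was -1.05 with median-of-ratios and -1.31 with panel total scaling, with 1 gene called in each. Unscaled counts gave Ch25h -1.46, Cyp27a1 -1.03, Cyp7b1 -1.65 and Gpr183 -0.14, with 3 called. Subtraction of 10 counts gave Ch25h -2.33, Cyp27a1 -1.01 and Cyp7b1 -2.18, with 3 called. Positive control scaling gave Ch25h -1.42, Cyp7b1 -1.60 and Gpr183 -0.10, with 2 called. Unscaled counts called 232 of all 770 genes lower, subtraction of 10 counts 91 and positive control scaling 218. Leaving out each sample gave Cyp7b1 -1.21 to -0.62 and 0 to 1 called, with 1 without adult sample 4. High against adult: 6 housekeeping genes gave Cyp27a1 1.52, Cyp7b1 0.15 and Gpr183 0.25. Panel total scaling gave Ch25h 0.65, Cyp27a1 -0.43, Cyp7b1 -1.75 and Gpr183 -1.70. Unscaled counts gave Cyp27a1 1.78, Cyp7b1 0.42 and Gpr183 0.52, and positive control scaling 2.12, 0.75 and 0.86. Each of these 4 settings called 2 genes. Of all 770 genes they called 340, 40, 347 and 420 higher and 8, 362, 2 and 1 lower, in that order. Leaving out each sample gave Cyp27a1 0.71 to 1.25 and 1 to 2 called, with 2 without High sample 2. With a floor of 20 counts, Ch25h was at least 3.09-fold and Cyp27a1 at least 1.91-fold higher in High than in Low with the deposited scaling. Positive control scaling, the control limit as a floor and the cyclic AMP motif were chosen after seeing the data. The filter on a mean value of 50 removed Cyp7b1, and Ch25h in Low against adult, so it gave no value there. The planned count-model fits were not run, because the control probe rows kept the columns from passing as whole reads. No paired analysis was possible because the samples carry the numbers 1 to 12, of which no 2 groups share any. Counts of 4 to 20 in Low samples limit what can be seen of the 3 enzymes there. Subtraction of 10 counts set those that fell below 1 to 1. This covers all Low counts of Cyp7b1 and most of Ch25h.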
